A study of Mus musculus with 9 samples.

Results

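Sox9 encodes SRY-box transcription factor 9, a member of the SOX family of DNA-binding proteins, and is described here in whole kidney of mice, as 1 of 55359 genes in the deposited count table. It was taken by its symbol, matched on the Ensembl identifier ENSMUSG00000000567, and was chosen by its level in these same 9 libraries, which differed widely between the groups. Its differences between the groups are therefore a description and carry no p-value. The study sequenced polyadenylated RNA in 9 kidney libraries, 3 in each of 3 groups. HFD-STZ+DH mice had a high-fat diet (HFD) with 49.0% of calories from fat, 2 intraperitoneal doses of 30 mg/kg streptozotocin (STZ), given on day 60 and again on day 63, and then dehydrozingerone by mouth at 50 mg/kg for 2 weeks once glucose was high. HFD-STZ+Veh mice had the same diet and streptozotocin, and vehicle. NCD+Veh mice had a normal calorie diet (NCD) with 11.32% of calories from fat, and vehicle. All mice were 6 weeks old when the diets began, and glucose was measured on day 65 in the streptozotocin groups. Streptozotocin kills the insulin-producing beta cells of the pancreas, so the model is a toxin given on top of a diet. Dehydrozingerone is a phenolic compound found in ginger. The titles decided the groups, because the labels' treatment field names the compound in all 9 libraries. The sources used here give neither sex nor strain, and do not name the vehicle.

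SOX9 binds DNA through its HMG box and bends it, and with its close relatives SOX8 and SOX10 it forms the SOXE subgroup. It is best known as the master regulator of cartilage, where it switches on collagen and aggrecan genes, and as a determinant of the testis. In the mouse kidney Sox9 is expressed in the branching ureteric bud and in nephron precursors, is found in few cells of the adult tubule, and is switched on in proximal tubule cells after acute injury, where SOX9-positive cells divide and rebuild the tubule.

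Total counts per library were 15.1 to 47.5 M (M, 1000000 counts). HFD-STZ+Veh replicate 2 stood apart, with 60.4% of its counts in mitochondrially encoded genes, 2.13 M counts in protein-coding genes of the nuclear genome and a TMM factor of 0.327. TMM, the trimmed mean of M values, rescales each library so that most genes do not differ. Counts in nuclear protein-coding genes were 7.63 to 15.2 M in HFD-STZ+DH, 2.13 to 6.52 M in HFD-STZ+Veh and 4.59 to 8.49 M in NCD+Veh. Malat1 is a nuclear RNA, given here as a share of the counts outside mitochondrial genes and unprocessed pseudogenes. It took 3.49% to 5.79%, 11.9% to 23.7% and 5.99% to 14.7% in the same order of groups. Kidney markers were present in all groups: all 12 proximal tubule markers and all 7 podocyte markers were detected. Each library has its own batch date in the labels, and the dates follow the group order; date and group cannot be told apart. Transcripts of Y-linked genes were at 36.5 to 106 counts per 1000000 of total count in 1 HFD-STZ+DH, 2 HFD-STZ+Veh and 1 NCD+Veh library. The other libraries had 0 to 0.209, so the libraries of a group did not all come from the same animal. Nothing says that each library came from a separate animal, so a p-value reflects the spread among these 9 libraries alone, which may be technical in part.

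Sox9 in HFD-STZ+DH kidneys lay below its level in HFD-STZ+Veh kidneys, the highest, and above that in NCD+Veh kidneys, the lowest. Its raw counts were 213, 401 and 191 in HFD-STZ+DH, 259, 74 and 480 in HFD-STZ+Veh, and 12, 30 and 52 in NCD+Veh. As counts per 1000000 of TMM-scaled library size (CPM), these were 6.26, 6.19 and 5.55 in HFD-STZ+DH, 14.0, 9.98 and 19.3 in HFD-STZ+Veh, and 0.642, 1.25 and 1.33 in NCD+Veh. The 3 groups did not overlap, and the HFD-STZ+DH libraries were the most alike. Such a lack of overlap was common for HFD-STZ+DH: of all tested genes, 19% lay wholly lower and 20.9% wholly higher in HFD-STZ+DH than in HFD-STZ+Veh, and 22.4% wholly higher and 21.7% wholly lower in HFD-STZ+DH than in NCD+Veh. Between HFD-STZ+Veh and NCD+Veh it was rarer, at 4.83% wholly higher and 6.56% wholly lower in HFD-STZ+Veh. The means were 6.00 ± 0.388 CPM in HFD-STZ+DH, 14.4 ± 4.65 CPM in HFD-STZ+Veh and 1.07 ± 0.375 CPM in NCD+Veh (SD, n = 3 each). The coefficient of variation was 6.47% in HFD-STZ+DH, 32.2% in HFD-STZ+Veh and 35.0% in NCD+Veh.

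Counting error was smaller than the gaps between the groups. The highest HFD-STZ+DH library had a 95% exact Poisson interval of 5.45 to 7.16 CPM, and the lowest HFD-STZ+Veh library one of 7.84 to 12.5 CPM. The lowest HFD-STZ+DH library had an interval of 4.79 to 6.40 CPM, and the highest NCD+Veh library one of 0.993 to 1.74 CPM. These intervals cover counting error only. In whole kidney, fewer cells that make Sox9 and less Sox9 RNA in each cell cannot be told apart.

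**Figure D1:**
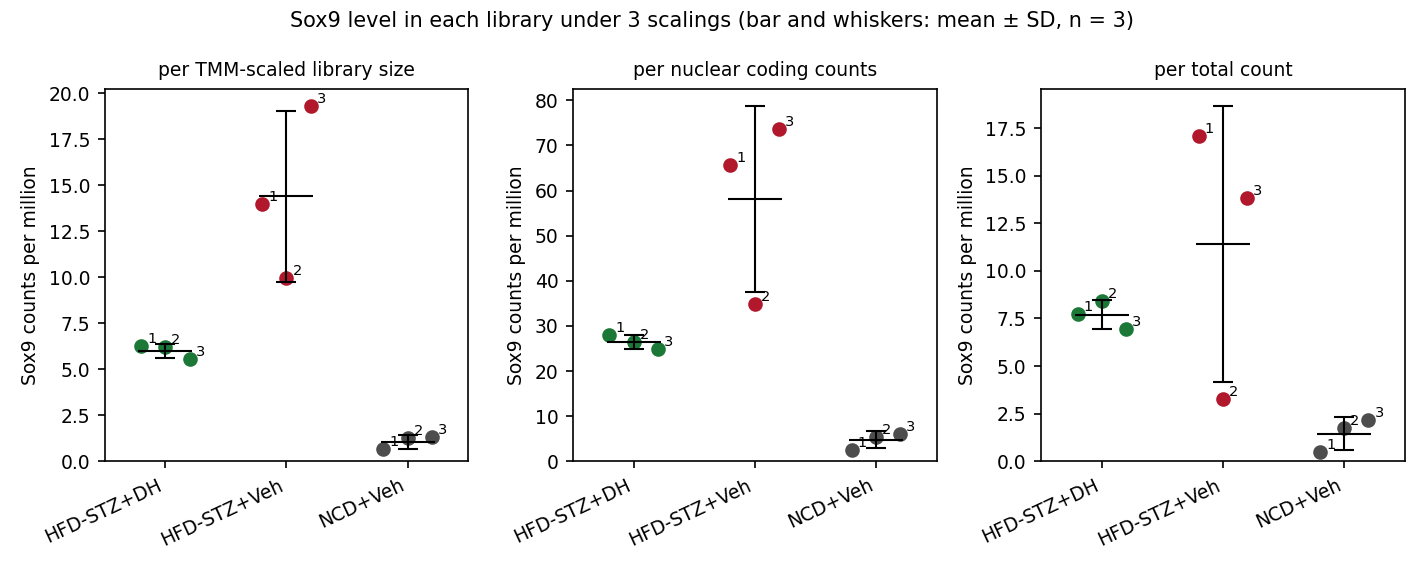
Sox9 counts per 1000000 (y axis) in each library, scaled by TMM library size (left), by counts in nuclear protein-coding genes (middle) and by total count (right); numbers beside the points are replicates, and bars and whiskers are mean ± SD (n = 3). HFD-STZ+DH lies below HFD-STZ+Veh and above NCD+Veh in the first 2 panels, while in the right panel HFD-STZ+Veh replicate 2, at 3.26, falls below all HFD-STZ+DH libraries.

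The fitted differences gave the same order. Sox9 was 0.412-fold in HFD-STZ+DH against HFD-STZ+Veh, a log2 fold change of -1.28 (SE 0.28). It was 13.2-fold higher in HFD-STZ+Veh than in NCD+Veh (log2 fold change 3.72, SE 0.32) and 5.44-fold higher in HFD-STZ+DH than in NCD+Veh (2.44, SE 0.31). The SD of Sox9 within groups was 0.42 on the log2 CPM scale, which is smaller than each of the 3 differences. The first and second comparisons share the HFD-STZ+Veh libraries, so their opposite signs are not independent of each other. Among the 11196 tested genes whose log2 CPM averaged 1 or more, Sox9 had the 2nd highest fold change in HFD-STZ+Veh against NCD+Veh and the 11th highest in HFD-STZ+DH against NCD+Veh. Among all 17179 tested genes it was 7th and 46th. In HFD-STZ+DH against HFD-STZ+Veh it ranked 700th from the lowest of the 11196 and 1550th of all tested genes, so many genes had a more negative fold change there.

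Scaling mattered most for HFD-STZ+Veh replicate 2. Per 1000000 of total count, Sox9 was 7.72, 8.44 and 6.93 in HFD-STZ+DH, 17.1, 3.26 and 13.8 in HFD-STZ+Veh and 0.463, 1.75 and 2.17 in NCD+Veh. There 2 of the 3 HFD-STZ+Veh libraries stayed above all HFD-STZ+DH libraries and 1 fell below them. The fitted log2 fold change was then -0.56 (SE 0.63) in HFD-STZ+DH against HFD-STZ+Veh and 2.96 (SE 0.68) in HFD-STZ+Veh against NCD+Veh. That scaling also moved the median log2 fold change of all tested genes to 0.81 and -0.74, against 0.04 and 0.00 with TMM. Per 1000000 counts of nuclear protein-coding genes, Sox9 was 27.9, 26.4 and 24.9 in HFD-STZ+DH, 65.7, 34.8 and 73.7 in HFD-STZ+Veh and 2.61, 5.48 and 6.13 in NCD+Veh, again without overlap. Without HFD-STZ+Veh replicate 2 the log2 fold change was -1.47 in HFD-STZ+DH against HFD-STZ+Veh, and without HFD-STZ+Veh replicate 3 it was -1.0. The part of the lower coding counts and higher Malat1 share of HFD-STZ+Veh in these differences was not tested.

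**Figure D2:**
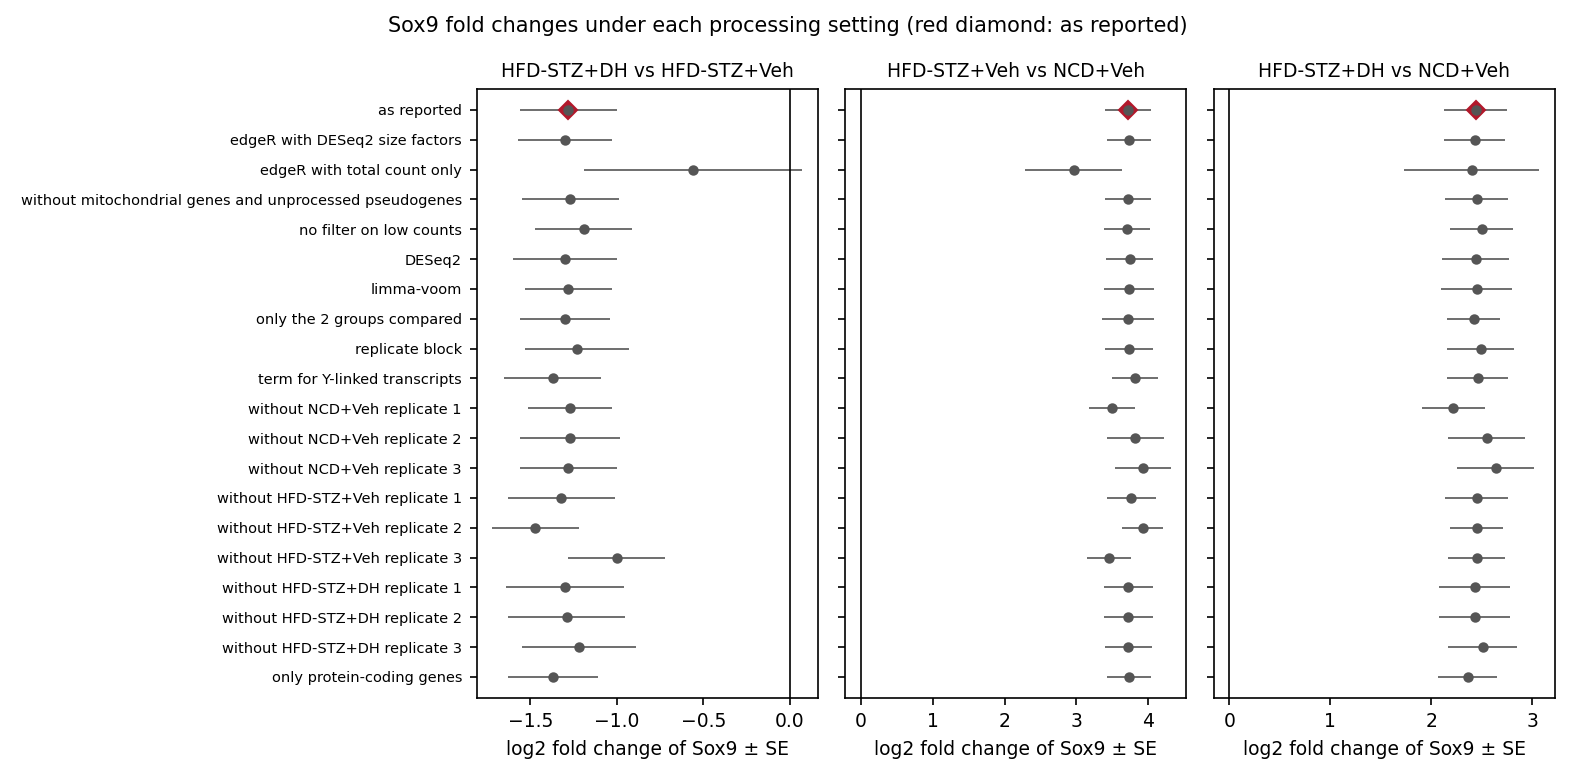
Log2 fold change of Sox9 ± SE (x axis) under each processing setting (rows), with the reported value as a red diamond. Values stay below 0 for HFD-STZ+DH against HFD-STZ+Veh and above 0 for the other 2 comparisons, and the total-count setting lies nearest to 0 in the first 2 panels, at -0.56 and 2.96.

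The order of the groups was the same in libraries with and without transcripts of Y-linked genes. In libraries without them, Sox9 was 6.19 and 6.26 CPM in HFD-STZ+DH, 14.0 CPM in 1 HFD-STZ+Veh library and 1.25 and 1.33 CPM in NCD+Veh. In libraries with them it was 5.55 CPM in HFD-STZ+DH replicate 3 and 0.642 CPM in NCD+Veh replicate 1. It was 9.98 and 19.3 CPM in HFD-STZ+Veh replicates 2 and 3.

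Few genes shared the stepwise order of Sox9. All 3 HFD-STZ+Veh libraries lay above all 3 HFD-STZ+DH libraries, and these above all 3 NCD+Veh libraries, in 12 of 17179 tested genes (0.0699%), Sox9 included. The reverse order held in 16 genes (0.0931%). Slitrk4, a neuronal membrane protein, averaged 1.28 ± 0.932 CPM in HFD-STZ+DH, 4.39 ± 0.958 CPM in HFD-STZ+Veh and 0.198 ± 0.140 CPM in NCD+Veh (SD, n = 3 each). Slc16a6, a transporter of ketone bodies, had 21.2, 27.2 and 45.4 CPM in HFD-STZ+DH, 48.1, 68.2 and 113 CPM in HFD-STZ+Veh and 18.9, 8.35 and 6.44 CPM in NCD+Veh. Vdr, the vitamin D receptor, had 75.9, 66.0 and 76.2 CPM in HFD-STZ+DH, 83.4, 113 and 152 CPM in HFD-STZ+Veh and 52.6, 46.7 and 43.8 CPM in NCD+Veh. In the reverse group, Slc5a2, the glucose transporter SGLT2 of the early proximal tubule, averaged 31.6 ± 2.55 CPM in HFD-STZ+DH, 15.9 ± 5.09 CPM in HFD-STZ+Veh and 49.2 ± 9.23 CPM in NCD+Veh. Dpep1, a dipeptidase of the proximal tubule brush border, had 16.8, 14.0 and 14.2 CPM in HFD-STZ+DH, 9.05, 11.9 and 7.78 CPM in HFD-STZ+Veh and 36.9, 21.5 and 20.2 CPM in NCD+Veh. In both genes the HFD-STZ+Veh libraries were the lowest and the NCD+Veh libraries the highest. Slitrk4, Slc16a6 and Slc5a2 were picked after their values were seen.

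The genes most like Sox9 were ranked by Pearson r of log2 CPM over the 9 libraries, among 10151 genes whose log2 CPM averaged 1 or more and whose symbol is more than a gene-model number. These correlations are descriptions over libraries that share group and depth. Exosc1, a subunit of the RNA exosome, came first with r = 0.965, followed by Rgs2, a brake on G protein signalling, with r = 0.932, and Vdr with r = 0.881. They differed in how much of this lay within groups: after subtracting the group means, r was 0.89 for Exosc1, 0.70 for Rgs2 and 0.06 for Vdr. Their steps were smaller than that of Sox9. Exosc1 averaged 6.19 ± 0.230 CPM in HFD-STZ+DH, 6.72 ± 0.751 CPM in HFD-STZ+Veh and 4.75 ± 0.367 CPM in NCD+Veh, and Rgs2 averaged 13.1 ± 3.68, 14.9 ± 2.69 and 6.62 ± 1.05 CPM in the same groups. Dzip1, a ciliary protein with r = 0.869, averaged 8.85 ± 2.95 CPM in HFD-STZ+DH, 9.35 ± 1.90 CPM in HFD-STZ+Veh and 2.35 ± 0.346 CPM in NCD+Veh. In Exosc1, Rgs2 and Dzip1 the libraries of HFD-STZ+DH and HFD-STZ+Veh overlapped. The other 6 of the 10 were Tmem179b, Tmem171, Nedd9, Dcaf1, Zdhhc21 and Rad9b, with r between 0.864 and 0.879. Within groups, r was negative for Nedd9, Dzip1, Dcaf1, Zdhhc21 and Rad9b (-0.53 to -0.23). In HFD-STZ+DH against HFD-STZ+Veh the log2 fold change was -0.68 for Vdr and -0.29 for Rad9b. It was between -0.20 and 0.04 for the rest of the 10, against -1.28 for Sox9. The most opposite genes were Dpep1 (r = -0.957), the secreted WNT-pathway modulator Dkk3 (-0.946), the ribosomal protein gene Rps12 (-0.941), the calcium-binding S100g (-0.920) and the transporter Abcc6 (-0.908).

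**Figure D3:**
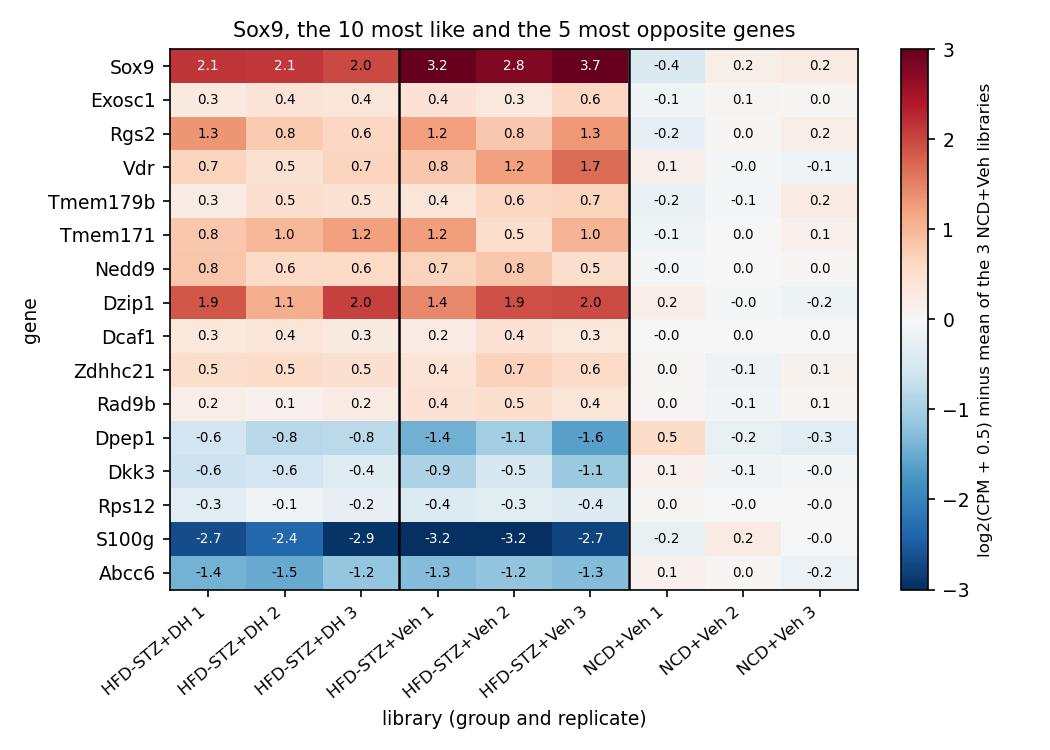
Level of Sox9, of the 10 most like genes and of the 5 most opposite genes in each library (columns, vertical lines between groups), as log2(CPM + 0.5) minus the mean of the 3 NCD+Veh libraries. Sox9 exceeds NCD+Veh by more than any of the like genes in each HFD-STZ+Veh library, and Exosc1, first by correlation, moves by less than 1 unit throughout.

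The gene next to Sox9 on chromosome 11 gave very low counts. BC006965 is annotated as a non-coding processed transcript on the opposite strand, head to head with Sox9, with 247 bases between the 2 genes in GENCODE M21 (GRCm38). It was singled out after its values were seen and was too low for the test. It had 3, 2 and 2 counts in HFD-STZ+DH, 5, 4 and 8 counts in HFD-STZ+Veh and 0 counts in each NCD+Veh library. Summed over the libraries this is 0.0525 CPM (95% exact Poisson interval 0.0211 to 0.108) in HFD-STZ+DH and 0.335 CPM (0.195 to 0.536) in HFD-STZ+Veh. The same interval for the 0 counts of NCD+Veh reaches 0.045 CPM. It overlaps the interval of HFD-STZ+DH, so a difference between HFD-STZ+DH and NCD+Veh was not detectable at this depth, and it does not overlap that of HFD-STZ+Veh. No annotated gene overlaps Sox9, whose exons span 4135 bases. The next genes on the other side, the non-coding Gm11681 and 4933434M16Rik, had 0 counts in all libraries.

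The nearest genes that could be tested did not share the stepwise order, which only 0.0699% of all tested genes had. Of 6, 0 were called by edgeR's quasi-likelihood test in any comparison, where 22.1% of all tested genes were called in HFD-STZ+DH against HFD-STZ+Veh, 0.0524% (0.0233% higher, 0.0291% lower) in HFD-STZ+Veh against NCD+Veh and 13.7% in HFD-STZ+DH against NCD+Veh. A call is an adjusted p below 0.05 over all 17179 tested genes. At an unadjusted p below 0.05 there was 1 of the 6 in each comparison, and DESeq2 called 1, only in HFD-STZ+DH against NCD+Veh, while limma-voom called 0. Over all 17179 genes, 6366, 1276 and 5454 had an unadjusted p below 0.05 in these comparisons, in the same order. DESeq2 called 4707, 125 and 3514 of all genes, and limma-voom 3658, 2 and 2591. Kcnj2 and Kcnj16, 2 inward-rectifier potassium channels, the kinase Map2k6, the zinc transporter Slc39a11, the Golgi protein Cog1 and the non-coding 2610035D17Rik had log2 fold changes of -0.25 to 0.91 in HFD-STZ+DH against HFD-STZ+Veh and of -1.26 to 0.46 in HFD-STZ+Veh against NCD+Veh.

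RefSeq promoter windows, the 250 bases before a gene's start in GRCm38.p6, are shown for BC006965, because it lies beside Sox9 and had no count in NCD+Veh, and for Vdr, which is both among the 3 genes most like Sox9 and in its stepwise order. The RefSeq start used for BC006965 lies inside the GENCODE gene, not at its end beside Sox9. Capitals mark a core motif of SOX proteins, searched as ACAAAG and AACAAT on both strands, which do not overlap in these windows.
BC006965: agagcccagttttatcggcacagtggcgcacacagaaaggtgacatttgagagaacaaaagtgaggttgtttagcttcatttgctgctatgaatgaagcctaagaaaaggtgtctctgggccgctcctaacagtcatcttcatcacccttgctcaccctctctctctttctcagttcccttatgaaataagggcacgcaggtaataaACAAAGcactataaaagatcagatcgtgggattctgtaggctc
Vdr: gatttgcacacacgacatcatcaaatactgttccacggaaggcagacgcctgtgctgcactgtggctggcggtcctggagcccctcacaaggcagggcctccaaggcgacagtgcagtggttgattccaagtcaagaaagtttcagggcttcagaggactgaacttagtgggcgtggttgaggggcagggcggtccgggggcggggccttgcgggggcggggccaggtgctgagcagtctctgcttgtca
The BC006965 window is chr11:112711357-112711606 and the Vdr window chr15:97908297-97908546, both on the minus strand and written 5′ to 3′. BC006965 holds 1 ACAAAG and Vdr neither motif. At least 1 of the motifs stands in 24.2% of 27025 promoter windows of this length. Of the 10 genes most like Sox9, 9 had a window and 1, Nedd9, held a motif. These matches describe letters in the windows and do not show binding. Sox9 and Tmem171 have no entry in the promoter table.

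Within the SOX family, Sox9 ranked higher in both streptozotocin groups than in NCD+Veh. Per kb of exon, Sox9 had 1.45 ± 0.0939 CPM in HFD-STZ+DH, 3.49 ± 1.13 CPM in HFD-STZ+Veh and 0.259 ± 0.0908 CPM in NCD+Veh (SD, n = 3 each). It ranked 2nd of the 20 SOX genes in HFD-STZ+DH and in HFD-STZ+Veh and 7th in NCD+Veh. Its share of the summed family level per kb was 14.1% in HFD-STZ+DH, 22.3% in HFD-STZ+Veh and 2.14% in NCD+Veh. Sox4, a SOXC factor of progenitors, was the highest member in every group, with 4.64 ± 1.24, 6.98 ± 2.98 and 6.26 ± 0.200 CPM per kb in the same order. The other SOXE genes were low: Sox8 had 45 counts and Sox10 13 counts over all 9 libraries, and neither could be tested.

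Of the 19 other SOX genes, 9 were tested and 6 had 0 counts in every library. In HFD-STZ+DH against HFD-STZ+Veh 0 were called higher and 2 lower, where 10% of all tested genes were called higher and 12% lower. The median log2 fold change of the 9 was -0.36, against 0.04 over all tested genes. Sox5, a SOXD partner of Sox9 in cartilage, had 2.35, 1.97 and 1.80 CPM in HFD-STZ+DH, against 4.17, 4.86 and 2.73 CPM in HFD-STZ+Veh. Sox5 fell by 0.91 on the log2 scale (SE 0.28, adjusted p = 0.036), and Sox17, an endothelial SOXF factor, fell by 0.80 (SE 0.26, adjusted p = 0.043). Leaving out 1 library at a time ended the call of Sox5 in 7 of 9 fits (adjusted p up to 0.11, without HFD-STZ+DH replicate 2) and of Sox17 in 8 of 9 (up to 0.12, without HFD-STZ+DH replicate 3). Both calls were lost with total-count scaling (adjusted p = 0.91 for Sox5 and 0.95 for Sox17). In HFD-STZ+Veh against NCD+Veh, where Sox9 was 13.2-fold higher, edgeR, DESeq2 and limma-voom each called 0 of the 9. There edgeR called only 0.0524% of all tested genes, so 0 calls is near that share. Of the 9, 0 had an unadjusted p below 0.05, where 1276 of all 17179 genes had, and their log2 fold changes were -0.50 to 0.30.

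**Figure D4:**
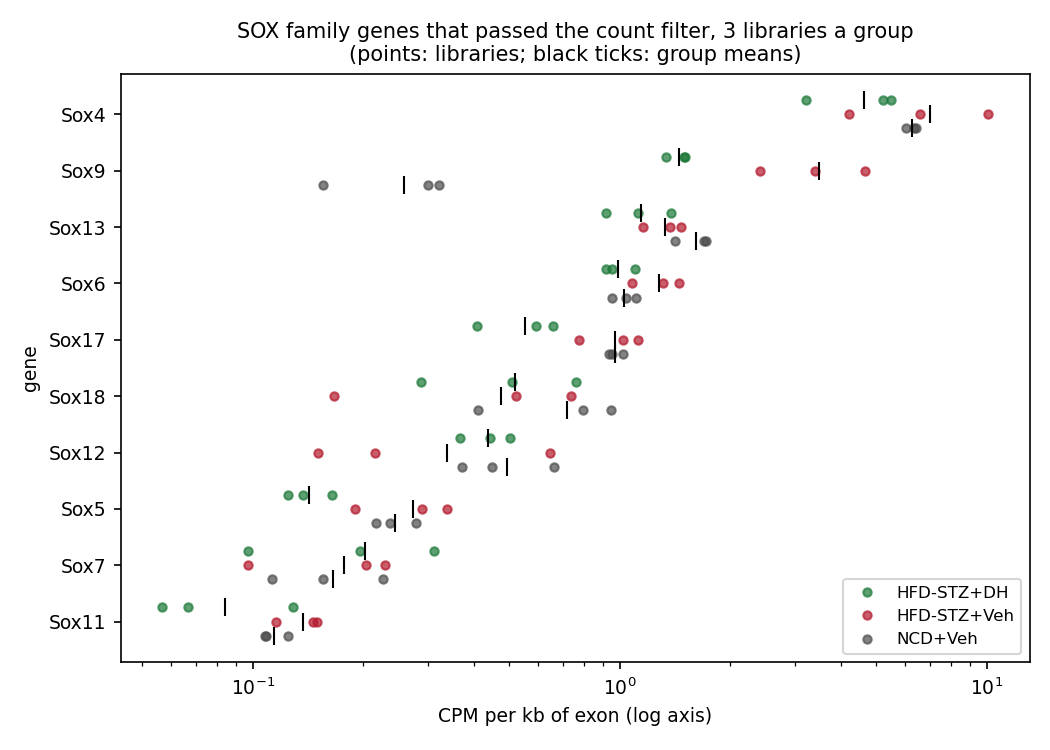
CPM per kb of exon (x axis, log scale) of the SOX genes that passed the count filter (y axis), with a point for each library and a black tick for each group mean. Sox9 spans from 4.66 in an HFD-STZ+Veh library down to 0.155 in an NCD+Veh library, while the groups of most other members lie close together or overlap.

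Genes known as direct or close targets of SOX9, mainly from mouse cartilage and testis, were mostly too low to test. Of 21 targets, 7 were tested and 4, Acan, Matn1, Matn3 and Ucma, had 0 counts in every library. Col2a1, the main collagen of cartilage, had 2 counts in all, both in NCD+Veh, and Vgf, which encodes a secreted neuropeptide precursor, had 2 counts. The summed level of 7 chondrocyte markers, 3 of them at 0, was 0.0872 to 0.571 CPM in HFD-STZ+DH, 0.562 to 0.809 CPM in HFD-STZ+Veh and 0.374 to 0.956 CPM in NCD+Veh.

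Col27a1, a fibrillar collagen gene that SOX9 activates in mouse cartilage, was the target with the largest difference. It had 66.8, 39.6 and 93.0 CPM in HFD-STZ+DH, 169, 167 and 303 CPM in HFD-STZ+Veh and 106, 63.6 and 45.4 CPM in NCD+Veh. All HFD-STZ+Veh libraries lay above all others, and the other 2 groups overlapped. Col27a1 fell by 1.68 on the log2 scale in HFD-STZ+DH against HFD-STZ+Veh (SE 0.40, adjusted p = 0.014), and its difference of 1.57 (SE 0.40) in HFD-STZ+Veh against NCD+Veh did not pass (adjusted p = 0.29). The first call was lost without HFD-STZ+DH replicate 1 (adjusted p = 0.059), without HFD-STZ+DH replicate 2 (0.064) and with total-count scaling (0.24). Of the 7 tested targets 2, Col27a1 and Sox5, were called lower and 0 higher in HFD-STZ+DH against HFD-STZ+Veh, where 12% of all genes were called lower. Between HFD-STZ+Veh and NCD+Veh, where edgeR called 0.0524% of all genes, it called 0 of the 7 and limma-voom 0. DESeq2 called 1 there, where it called 125 of all 17179 genes, and 1 had an unadjusted p below 0.05, where 1276 of all genes had.

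Regulators and partners of SOX9 were measured in all groups. None had its stepwise order without overlap, which only 0.0699% of all tested genes had. Of 16, 15 were tested, and 1 was called higher and 5 lower in HFD-STZ+DH against HFD-STZ+Veh, against 10% and 12% of all genes, with a median log2 fold change of -0.08. Crebbp, an acetyltransferase coactivator, had 54.1, 54.8 and 69.1 CPM in HFD-STZ+DH, against 131, 212 and 129 CPM in HFD-STZ+Veh and 150, 104 and 101 CPM in NCD+Veh. It fell by 1.40 on the log2 scale in HFD-STZ+DH against HFD-STZ+Veh (SE 0.28, adjusted p = 0.0074). The histone deacetylase gene Hdac1 fell by 1.28 (SE 0.27, adjusted p = 0.0087) and the DNA methyltransferase gene Dnmt3a by 0.95 (SE 0.23, adjusted p = 0.015). The others called lower were Ep300, a relative of Crebbp (adjusted p = 0.043), and the histone methyltransferase gene Ezh2 (0.044), each lost in 6 of 9 fits without 1 library (up to 0.14 for Ep300, without HFD-STZ+DH replicate 2, and 0.16 for Ezh2, without HFD-STZ+DH replicate 1). Zfp24, a zinc-finger factor needed for Sox9 to rise in mouse acute kidney injury, had 19.5, 17.8 and 13.4 CPM in HFD-STZ+DH, 11.0, 9.04 and 11.0 CPM in HFD-STZ+Veh and 9.36, 11.8 and 11.3 CPM in NCD+Veh. Zfp24 was thus highest where Sox9 was intermediate; it rose by 0.70 in HFD-STZ+DH against HFD-STZ+Veh (SE 0.21, adjusted p = 0.03). Leaving out 1 library kept the calls of Crebbp and Hdac1 in all 9 fits, ended that of Dnmt3a without HFD-STZ+DH replicate 1 (adjusted p = 0.07) or 2 (0.072), and ended that of Zfp24 in 4 fits (up to 0.13, without HFD-STZ+DH replicate 1). With total-count scaling 0 of the 6 calls held, and Ep300 turned to a log2 fold change of 0.13. Without HFD-STZ+Veh replicate 2, Ep300 was at -0.45, against -0.78 with all libraries. Between HFD-STZ+Veh and NCD+Veh, where edgeR called 0.0524% of all genes, edgeR, DESeq2 and limma-voom each called 0 of 15. There 2 had an unadjusted p below 0.05, as did 1276 of all 17179 genes.

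The other genes of the injured tubule were highest in a different library from Sox9. In HFD-STZ+DH replicate 3 Sox9 was 5.55 CPM, the lowest of its group, yet 19 of the 20 genes of this list had their highest level there. That library was the only member of its group with transcripts of Y-linked genes, and whether this bears on these levels was not tested. Havcr1, which encodes the injury marker KIM-1 of the proximal tubule, had 8, 168 and 1592 counts in HFD-STZ+DH, 4, 8 and 19 counts in HFD-STZ+Veh and 7, 7 and 3 counts in NCD+Veh. Krt20, a keratin of damaged tubule cells, had 7, 27 and 206 counts in HFD-STZ+DH, 3, 1 and 3 counts in HFD-STZ+Veh and 1, 1 and 6 counts in NCD+Veh. Lcn2, the secreted iron-scavenging protein NGAL, had 1.26, 2.39 and 12.5 CPM in HFD-STZ+DH, 2.39, 1.08 and 1.28 CPM in HFD-STZ+Veh and 0.695, 0.249 and 1.46 CPM in NCD+Veh. Havcr1, Krt20 and Lcn2 overlapped between HFD-STZ+Veh, where Sox9 was highest, and NCD+Veh.

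Of the 20 genes, 16 were tested. Against HFD-STZ+Veh, 3 were called higher in HFD-STZ+DH, where 10% of all genes were, and 0 lower, with a median log2 fold change of 1.03. Spp1, the secreted glycoprotein osteopontin, rose with 440, 444 and 1921 CPM in HFD-STZ+DH, against 164, 243 and 137 CPM in HFD-STZ+Veh (log2 fold change 2.37, SE 0.59, adjusted p = 0.017). The lipid droplet gene Plin2 rose by 0.79 (SE 0.22, adjusted p = 0.024) and the adhesion gene Vcam1, a marker of tubule cells that fail to repair, by 1.87 (SE 0.59, adjusted p = 0.048). The call of Spp1 was lost without HFD-STZ+Veh replicate 1 (adjusted p = 0.052), that of Plin2 in 4 of 9 fits (up to 0.077, without HFD-STZ+Veh replicate 1) and that of Vcam1 in 7 (up to 0.15, without HFD-STZ+Veh replicate 2). HFD-STZ+DH replicate 3 carried much of 2 of these values: without it the log2 fold change was 1.30 for Spp1 and 0.72 for Vcam1. Havcr1 (adjusted p = 0.13) and Lcn2 (0.19) did not pass. Between HFD-STZ+Veh and NCD+Veh, where edgeR called 0.0524% of all genes, edgeR and limma-voom called 0 of the 16 and DESeq2 1. There 1 had an unadjusted p below 0.05, and the median was 0.17. Over all 17179 genes DESeq2 called 125 there, and 1276 had an unadjusted p below 0.05.

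Cdkn1a, the cell-cycle inhibitor p21, had the highest correlation with Sox9 among the tested members of the list. It had 2.85, 6.65 and 10.6 CPM in HFD-STZ+DH, 5.69, 5.26 and 6.82 CPM in HFD-STZ+Veh and 2.14, 1.62 and 1.79 CPM in NCD+Veh, with r = 0.78 against Sox9 over the 9 libraries. All 6 libraries of the streptozotocin groups lay above NCD+Veh. Cdkn1a rose in HFD-STZ+DH against NCD+Veh (log2 fold change 1.86, SE 0.39, adjusted p = 0.015), a call lost without NCD+Veh replicate 1 (0.058), NCD+Veh replicate 2 (0.051) or HFD-STZ+DH replicate 2 (0.058). It differed by 1.69 (SE 0.40) in HFD-STZ+Veh against NCD+Veh, which did not pass (adjusted p = 0.22).

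**Figure D5:**
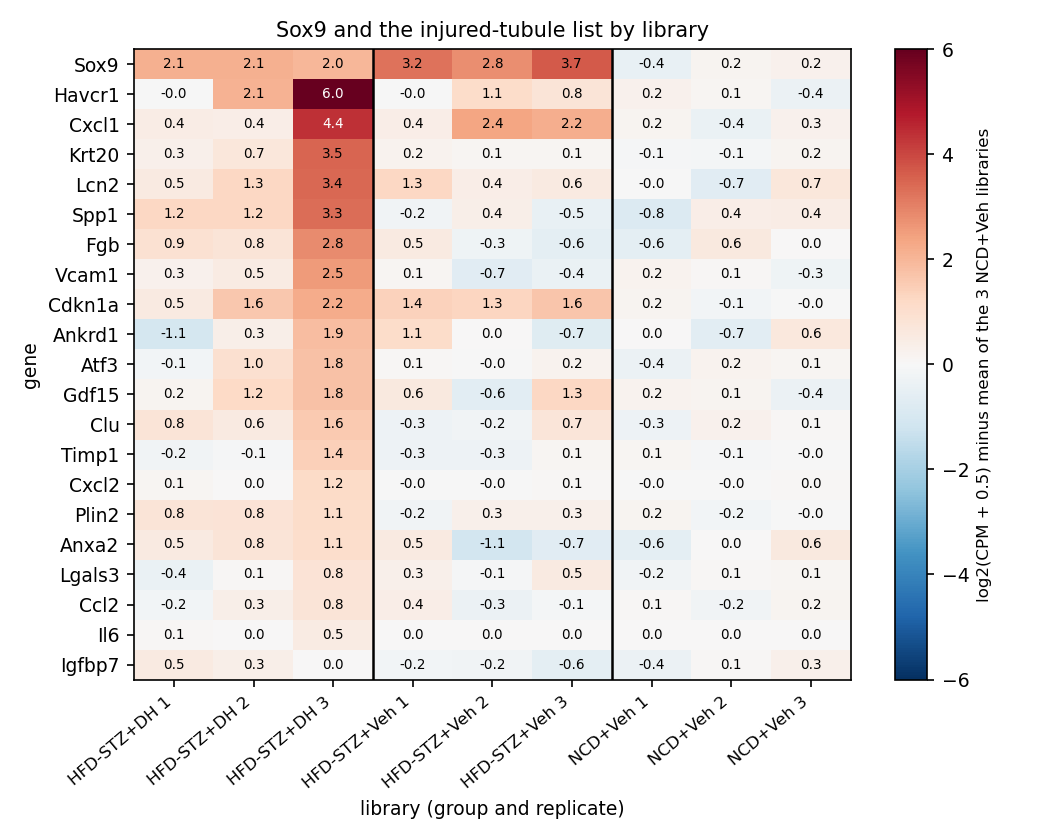
Sox9 and the 20 genes of the injured-tubule list in each library (columns, vertical lines between groups), as log2(CPM + 0.5) minus the mean of the 3 NCD+Veh libraries. Sox9 is highest in the 3 HFD-STZ+Veh libraries (2.77 to 3.68), whereas Havcr1 and most of the list peak in HFD-STZ+DH replicate 3, where Havcr1 reaches 5.99.

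Genes of progenitor and regenerating tubule cells, among which Sox9 is counted, were called at shares near or somewhat above those of all genes. All 19 were tested, and 2, Cd24a and Myc, were called higher and 4 lower in HFD-STZ+DH against HFD-STZ+Veh, where 10% of all genes were called higher and 12% lower. The nephron transcription factors Pax2, Pax8 and Lhx1 and the adhesion gene Ncam1 fell. Pax2 had 7.61, 6.06 and 8.29 CPM in HFD-STZ+DH, against 23.5, 10.9 and 12.4 CPM in HFD-STZ+Veh. It fell by 1.10 (SE 0.28, adjusted p = 0.019), Pax8 fell by 0.66 (SE 0.19, adjusted p = 0.03) and Ncam1 fell by 1.35 (SE 0.26, adjusted p = 0.0067). The surface marker Cd24a rose by 1.78 (SE 0.44, adjusted p = 0.016). Ncam1 was called in all 9 fits without 1 library. Lhx1 was lost in 6 (up to 0.11, without HFD-STZ+DH replicate 3) and Myc in 7 (up to 0.13, without HFD-STZ+DH replicate 3). Pax2 was lost in 3 (up to 0.086, without HFD-STZ+DH replicate 2), Pax8 in 4 (up to 0.13, without HFD-STZ+DH replicate 1) and Cd24a in 2 (without HFD-STZ+DH replicate 1, 0.063, or 2, 0.063). Without HFD-STZ+Veh replicate 1, Pax2 was at -0.69. With total-count scaling the 4 lower calls were lost: Pax8 turned to 0.11 (adjusted p = 0.91), and the log2 fold change was -0.68 for Ncam1 (0.48) and -0.55 for Pax2 (0.54). Cdh6, a cadherin of the developing nephron, had 22.3, 32.2 and 8.66 CPM in HFD-STZ+DH and 26.3, 7.96 and 4.17 CPM in HFD-STZ+Veh, which overlap. Between HFD-STZ+Veh and NCD+Veh, where edgeR called 0.0524% of all genes, edgeR, DESeq2 and limma-voom called 0 of the 19. There 2 had an unadjusted p below 0.05, as did 1276 of all 17179 genes.

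In branching signals of the ureteric bud, where SOX9 acts in the mouse, 13 of 19 genes were tested. The receptor gene Ret and its ligand gene Gdnf were too low. Etv4, an ETS factor downstream of RET, had 1.32, 0.833 and 0.785 CPM in HFD-STZ+DH, 4.50, 1.08 and 4.53 CPM in HFD-STZ+Veh and 0.321, 1.08 and 0.307 CPM in NCD+Veh. Its r with Sox9 was 0.82. Etv4 fell by 1.84 in HFD-STZ+DH against HFD-STZ+Veh (SE 0.54, adjusted p = 0.031), a call lost in 5 of 9 fits (up to 0.11, without HFD-STZ+DH replicate 2). Its relative Etv5 rose by 1.03 (SE 0.31, adjusted p = 0.035), the phosphatase gene Dusp6 rose by 0.80 (SE 0.24, adjusted p = 0.032) and the feedback inhibitor gene Spry2 fell by 1.07 (SE 0.21, adjusted p = 0.0074). Spry2 was called in all 9 fits, Etv5 was lost in 6 (up to 0.13, without HFD-STZ+DH replicate 1) and Dusp6 in 4 (up to 0.12, without HFD-STZ+DH replicate 1). In all, 2 of 13 were called higher and 3 lower, against 10% and 12% of all genes, the third being the WNT ligand gene Wnt4, lost in 4 of 9 fits (up to 0.23, without HFD-STZ+Veh replicate 1). With total-count scaling 0 of the 5 calls held, and Spry2 was at -0.33 (adjusted p = 0.73). Between HFD-STZ+Veh and NCD+Veh, where edgeR called 0.0524% of all genes, edgeR and limma-voom called 0 of the 13 and DESeq2 1. There DESeq2 called 125 of all 17179 genes. An unadjusted p below 0.05 was found for 2 of the 13 and for 1276 of all genes.

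Pathways that act upstream of Sox9 in injured or developing epithelia held no gene with its stepwise order without overlap. Only 0.0699% of all tested genes had that order, so lists of this size would seldom hold one. The counts below stand against 10% of all genes called higher and 12% called lower in HFD-STZ+DH against HFD-STZ+Veh. Of 10 tested EGF receptor genes 1 was called in HFD-STZ+DH against HFD-STZ+Veh, namely Egfr itself, with 20.1, 21.0 and 22.8 CPM in HFD-STZ+DH, against 9.11, 13.2 and 12.4 CPM in HFD-STZ+Veh. Egfr rose by 0.88 on the log2 scale (SE 0.21, adjusted p = 0.014), a call lost without HFD-STZ+DH replicate 2 (0.05). Of 14 Notch genes, Notch2 (1.25, SE 0.32, adjusted p = 0.018) and Maml1 (1.23, SE 0.30, adjusted p = 0.016) rose and the target gene Hes1 fell by 1.33 (SE 0.26, adjusted p = 0.0074). Hes1 was called in all 9 fits, while Notch2 was lost without HFD-STZ+DH replicate 1 (0.069) and Maml1 without HFD-STZ+DH replicate 2 (0.059). Of 18 WNT genes, the beta-catenin gene Ctnnb1 and the receptor-degrading Znrf3 were called higher and the transcription factor gene Tcf7l2 lower. Leaving out 1 library gave 0 to 3 WNT genes higher and 0 to 1 lower. Of 15 YAP and TEAD genes, 6 were called higher (Lats1, Lats2, Wwtr1, Ccn1, Ccn2 and Axl) and 0 lower, and the 6 became 0 to 6 when 1 library was left out. The 3 WNT calls were lost without HFD-STZ+DH replicate 1 and without HFD-STZ+DH replicate 2, and all 6 YAP and TEAD calls without HFD-STZ+DH replicate 2. With total-count scaling 1 YAP and TEAD gene was called higher, 2 WNT genes higher and 0 lower, 0 EGF receptor and 0 Notch genes were called, and Hes1 was at -0.54 (adjusted p = 0.53). Of 8 Hedgehog genes edgeR, DESeq2 and limma-voom called 0, and 0 had an unadjusted p below 0.05. Among all 17179 genes, 6366 had an unadjusted p below 0.05 in HFD-STZ+DH against HFD-STZ+Veh, DESeq2 called 4707 and limma-voom 3658. In HFD-STZ+Veh against NCD+Veh, where Sox9 was 13.2-fold higher, edgeR called 0.0524% of all tested genes. Of these 5 lists it called 0 genes there, which is near that share. There limma-voom also called 0, DESeq2 called 1, in the YAP and TEAD list, and 1, 1, 2, 0 and 2 genes of the EGF receptor, Notch, WNT, Hedgehog and YAP and TEAD lists had an unadjusted p below 0.05. Over all 17179 genes limma-voom called 2 there and DESeq2 125, and 1276 had an unadjusted p below 0.05.

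Dividing cells and scar matrix, which go with Sox9 in repair and fibrosis, gave calls in 1 direction, higher in HFD-STZ+DH than in HFD-STZ+Veh, where 10% of all genes were called higher and 12% lower. Of 12 tested proliferation genes 4 (Pcna, Mcm5, Mcm6 and Mki67) rose in HFD-STZ+DH against HFD-STZ+Veh and 0 fell. Pcna, the replication clamp, had 12.0, 15.5 and 12.6 CPM in HFD-STZ+DH, against 4.82, 3.91 and 4.78 CPM in HFD-STZ+Veh and 4.60, 6.27 and 6.57 CPM in NCD+Veh (log2 fold change 1.56, SE 0.22, adjusted p = 0.0031 against HFD-STZ+Veh). Of 16 matrix genes 3 rose, namely the fibronectin gene Fn1 (log2 fold change 1.42, SE 0.30, adjusted p = 0.0094), the collagen gene Col3a1 (1.80, SE 0.41, adjusted p = 0.012) and the fibrillin gene Fbn1 (1.36, SE 0.39, adjusted p = 0.027). Fn1 had 5.47, 6.12 and 9.25 CPM in HFD-STZ+DH, 2.55, 2.70 and 2.57 CPM in HFD-STZ+Veh and 7.27, 4.32 and 3.89 CPM in NCD+Veh. Fbn1 had 2.32, 2.22 and 3.98 CPM in HFD-STZ+DH, 1.41, 0.405 and 1.24 CPM in HFD-STZ+Veh and 3.15, 3.12 and 2.58 CPM in NCD+Veh. In both genes HFD-STZ+Veh was the lowest group, and HFD-STZ+DH overlapped NCD+Veh, with log2 fold changes against NCD+Veh of 0.44 (SE 0.28) for Fn1 and -0.05 (SE 0.35) for Fbn1. Pcna, Fn1 and Col3a1 were called in all 9 fits without 1 library, while Mcm5, Mcm6 and Fbn1 were each lost in 3 and Mki67 in 5 (up to 0.11, without HFD-STZ+Veh replicate 2). HFD-STZ+DH replicate 3 stood out in Col3a1, with 46.2 CPM against 18.3 and 12.6 CPM in the others of its group, and in Mki67: without it the log2 fold change was 1.08 for Col3a1 and 1.17 for Mki67, against 2.46 for Mki67 with all libraries. It was also the only library of its group with transcripts of Y-linked genes. The 1 matrix gene called between HFD-STZ+Veh and NCD+Veh was Col5a2, which fell by 1.30 (SE 0.20, adjusted p = 0.046), had r = -0.91 with Sox9 and was lost in all 9 fits (up to 0.21, without NCD+Veh replicate 2). At an unadjusted p below 0.05 there were 7 of the 16 matrix genes, where 1276 of all 17179 genes were, and 14 of the 16 had a negative log2 fold change.

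In HFD-STZ+DH against NCD+Veh, 6.31% of all genes were called higher and 7.38% lower. Of all 17179 genes, 5454 had an unadjusted p below 0.05 there, DESeq2 called 3514 and limma-voom 2591. Of the SOX family and of the SOX9 targets edgeR called 0 (unadjusted p below 0.05 in 3 and 1, DESeq2 2 and 1, limma-voom 1 and 0), and of the regulators and partners 1, Crebbp, which fell by 0.99 (SE 0.27, adjusted p = 0.035) and was lost in 5 of 9 fits (up to 0.14, without HFD-STZ+DH replicate 1). Of the injured-tubule genes 3 of 16 rose: Cdkn1a, Plin2 and Spp1. Spp1 rose by 2.20 (SE 0.58, adjusted p = 0.031) and was lost in 6 fits (up to 0.12, without NCD+Veh replicate 1), and Plin2 rose by 0.94 (SE 0.21, adjusted p = 0.019) and was lost in 4 (up to 0.071, without NCD+Veh replicate 2). Without HFD-STZ+DH replicate 3, Spp1 was at 1.13. Of the other lists, 3 WNT genes of 18 were called higher and 2 lower, 4 proliferation genes of 12 higher and 0 lower, 2 branching genes of 13 higher and 1 lower, and 3 YAP and TEAD genes of 15 higher and 0 lower. There were also 2 regenerating-tubule genes of 19 higher and 1 lower, 1 matrix gene of 16 higher and 2 lower, 1 EGF receptor gene of 10 higher and 0 lower, and 1 Notch gene of 14 lower and 0 higher. Hedgehog genes gave 0 calls by edgeR, DESeq2 and limma-voom, and 0 at an unadjusted p below 0.05. Leaving out 1 library took each of these counts to 0 in at least 1 fit, except those of proliferation genes called higher, which went down to 1, and matrix genes called lower, which also went down to 1. These comparisons share the HFD-STZ+DH libraries with the one against HFD-STZ+Veh, so their values are not independent of it.

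Markers of cell types that carry Sox9 in other settings did not show its stepwise order. The summed level of 7 thin limb markers was 98.7 to 217 CPM in HFD-STZ+DH, 53.1 to 149 CPM in HFD-STZ+Veh and 79.1 to 160 CPM in NCD+Veh. That of 8 urothelial markers, with none at 0, was 1.83 to 2.36, 1.40 to 6.78 and 1.37 to 7.23 CPM in the same groups. That of 12 proximal tubule markers was 1362 to 1432, 953 to 1941 and 1251 to 2133 CPM. The groups overlapped in all 3 lists. The proximal tubule sum hides its members. Slc7a13 alone had 96.0 to 516 CPM in libraries with transcripts of Y-linked genes and 0.813 to 3.07 CPM in the others. In HFD-STZ+DH against HFD-STZ+Veh, 4 of the 12 (Slc5a2, Slc6a19, Slc7a7 and Gatm) were called higher and 0 lower, against 10% and 12% of all genes. In HFD-STZ+Veh against NCD+Veh 8 of the 12 had a negative log2 fold change and 4 a positive one. There 1, Slc6a19, was called lower (log2 fold change -1.73, SE 0.24, adjusted p = 0.035) and 0 higher, where 0.0291% of all genes were called lower. The sum of 7 podocyte markers was 75.8 to 96.2 CPM in HFD-STZ+DH, 25.5 to 47.1 CPM in HFD-STZ+Veh and 54.9 to 77.1 CPM in NCD+Veh, lowest where Sox9 was highest. Of 8 markers of the exocrine pancreas, another tissue with Sox9, 7 were at 0. The remaining marker, Cela1, had 8.55 to 15.8 CPM in HFD-STZ+DH, 2.56 to 7.82 CPM in HFD-STZ+Veh and 13.9 to 18.7 CPM in NCD+Veh. Cela1 was called higher in HFD-STZ+DH against HFD-STZ+Veh (log2 fold change 1.04, SE 0.35, adjusted p = 0.049). The part of any of these cell types in the level of Sox9 was not tested.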

How the data were processed

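Counts per gene were deposited by the authors as whole numbers for 55359 Ensembl genes, raw per the file's values. Per the labels' protocols, polyadenylated RNA was captured and libraries were made with a stranded kit. FastQC, Trim Galore and STAR with GRCm39 (mm39) are named in the submitters' processing notes. No counting program, strand setting or version is given in the sources used, so reads shared between near-identical or overlapping genes cannot be separated. The table held 0 other columns of per-sample values. Symbols, gene classes, exon lengths and gene order came from GENCODE M21 (GRCm38), and 94.1% of identifiers matched.

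In R 4.3.3, edgeR 4.0.16 fitted all 9 libraries with group as the only term, after filterByExpr (17179 genes) and TMM, leaving 6 residual degrees of freedom; the common dispersion was 0.0893. The robust quasi-likelihood F-test was two-sided, and its p-values were adjusted by Benjamini-Hochberg over the 17179 genes. Every adjusted p is from this test unless another is named. SEs were derived from the F statistic. DESeq2 1.42.0 and limma 3.58.1 (voom) served as alternatives, beside other scalings, no filter, 2 groups only, a replicate block, a term for Y-linked transcripts and leaving out each library. The fit was tested on simulated counts. Likeness used log2 CPM with a prior count of 2.

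Sox9, the gene lists and the naming rule were chosen with earlier results of these data known. The rule names the 10 genes most like Sox9 and the 5 most opposite, up to 4 members of each list with the lowest p in HFD-STZ+DH against HFD-STZ+Veh and in HFD-STZ+Veh against NCD+Veh, a fixed set around Sox9 and injury, and the 3 tested neighbours on each side. Lists carry counts and medians only.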

Additional observations from a re-analysis of the deposited data

How the results depend on the processing

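Sox9 kept its direction in all 19 alternatives of each comparison. Its log2 fold change was -1.47 to -1.0 in HFD-STZ+DH against HFD-STZ+Veh, 3.45 to 3.92 in HFD-STZ+Veh against NCD+Veh and 2.22 to 2.64 in HFD-STZ+DH against NCD+Veh when 1 library was left out. With total-count scaling the first 2 were -0.56 and 2.96; all other settings lay within -1.37 to -1.19, 3.70 to 3.82 and 2.36 to 2.50. The cause was not tested. Counts of called genes moved far more. In HFD-STZ+DH against HFD-STZ+Veh, 3796 genes were called, with 888 under total-count scaling (93.7% of them higher, against 45.5%) and 1149 to 4086 without 1 library (1149 without HFD-STZ+DH replicate 1, 1302 without HFD-STZ+DH replicate 2). In HFD-STZ+Veh against NCD+Veh, 9 genes were called, with 29 under total-count scaling, 425 without a filter, 125 by DESeq2, 2 by limma-voom, 3 from the 2 groups alone, 42 with a term for Y-linked transcripts and 2 to 28 without 1 library (28 without HFD-STZ+Veh replicate 1, 3 without HFD-STZ+Veh replicate 3, 4 without HFD-STZ+DH replicate 2, and 2 without HFD-STZ+DH replicate 3 or any 1 NCD+Veh library). In HFD-STZ+DH against NCD+Veh, 2352 genes were called, with 36 under total-count scaling, 3981 from the 2 groups alone, 3617 with a term for Y-linked transcripts and 112 to 3706 without 1 library (112 and 245 without HFD-STZ+DH replicate 1 and 2, 259 and 779 without NCD+Veh replicate 1 and 2, 3706 without HFD-STZ+Veh replicate 2). The restriction to nuclear protein-coding genes was chosen after seeing the data.

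With the replicate number as a block, 2159, 2 and 772 genes were called in the 3 comparisons in the same order. Same-numbered libraries did not deviate together (r = -0.41 to 0.22). With 3 libraries in a group, these correlations cannot show whether same-numbered libraries share anything besides a number.

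Of the 38 named genes called in HFD-STZ+DH against HFD-STZ+Veh, 10 kept their call under total-count scaling and 26 lost it; Ep300 and Pax8 reversed, with log2 fold changes of 0.13 and 0.11. All 43 list members called there kept their sign in every fit without 1 library, and 8 kept their call in all 9 fits. Depth limits Sox9 through its counts, which were 12 to 52 in the NCD+Veh libraries and 74 in HFD-STZ+Veh replicate 2.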
